A study of Mus musculus with 10 samples.

Results

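The 9 genes described here encode proteins with which epithelial cells hold on to each other and seal the space between them, together with a protease of the same cells. They are Epcam, Cdh1, Cldn7, St14, Pkp3, Ocln, Marveld3, Cgn and Crb3. They were found by gene symbol among the 24306 genes of the deposited tables, and each symbol matched 1 gene. The genes were chosen by their lower counts in Cre-positive ovaries than in controls of these same libraries, known from earlier results. Their differences from controls are therefore given as a description, and they support nothing by themselves. Another 99 genes of 6 lists (adherens junction, claudins, other tight junction, cell polarity, desmosome, and matriptase with its partners) serve as their surroundings.

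PolyA RNA of whole ovaries was sequenced in 10 libraries, from mice that were 6 weeks old and of mixed C57BL/6 and 129 strain. Dmrt1 het Rar mutants (n = 2) were Dmrt1 fl/+, homozygous for floxed Rara, Rarb and Rarg, and positive for Sf1-Cre. Rar mutants (n = 3) were Dmrt1 +/+ with the same floxed receptor alleles and Sf1-Cre. Controls (n = 5) were Dmrt1 +/+ and carried the floxed receptor alleles without Cre. All 10 libraries thus shared the floxed receptor genes. Rara, Rarb and Rarg encode the nuclear receptors for retinoic acid, and Dmrt1 encodes a regulator of gonadal sex. Sf1-Cre uses the Nr5a1 promoter, so that recombination takes place in the gonad's somatic cells and not in its germ cells. Since the controls lack Cre, its own effects and those of receptor loss cannot be told apart. The design text counts 5 replicates in each of 2 genotypes, which is met only when both Cre-positive groups are pooled. That pool is called Rar-deleted below. The labels do not say how many animals gave an ovary, so p-values measure the spread between these samples.

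Total counts ran from 21064856 to 25920131 per library, and 3 counts, the upper limit that a count of 0 allows, were worth 0.116 to 0.142 CPM (counts scaled to library size), for counting error only. Of the deleted genes, Rarg was at 3.63 to 5.30 FPKM in Rar-deleted ovaries and at 5.85 to 7.91 FPKM in controls, without overlap. Rara was at 4.68 to 6.98 FPKM in Rar-deleted ovaries and 4.55 to 8.45 FPKM in controls, and Rarb at 0.688 to 0.947 FPKM in Rar-deleted ovaries and 0.788 to 1.501 FPKM in controls. Dmrt1 was listed at 0 in all libraries but Dmrt1 het Rar mutant 2, at 0.084 FPKM. A gene's total does not show whether a floxed exon was removed. FPKM are fragments scaled to transcript length and, in these deposited values, to a median-of-ratios size factor per library. Levels of different genes can therefore be set side by side only on this scale. Granulosa cell markers, which define the ovary's follicles, were present in every library, at a summed 3516 to 7373 CPM in Rar-deleted ovaries and 4549 to 8916 CPM in controls. The titles carry a number, under 7800 for 4 libraries (control 1, Rar mutant 1 and the pair of Dmrt1 het Rar mutants) and over 7800 for 6, and the labels do not say what it stands for. On the first principal component, which held 35.5% of the variance, the 4 lay between -49.3 and -40.0 and the other 6 between 2.80 and 52.9. Because these libraries stood apart, values among the 6 alone are given beside the main ones.

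In an epithelium, neighbouring cells are joined near their apical side by a belt of tight junctions, below it by adherens junctions, and further down by desmosomes. Epcam encodes a surface adhesion molecule of epithelial cells that binds claudin-7, the product of Cldn7, and Cdh1 encodes E-cadherin, the cadherin of epithelial adherens junctions. St14 encodes matriptase, a membrane-anchored serine protease that can cleave EpCAM, and Pkp3 encodes plakophilin-3, a plaque protein of desmosomes. Ocln and Marveld3 encode occludin and MARVELD3, membrane proteins of the tight junction, and Cgn encodes cingulin, which lines its cytoplasmic face. Crb3 encodes an apical polarity protein of the Crumbs family. The epithelia of the ovary include its thin surface layer, and EpCAM and E-cadherin are known from mouse germ cells as well.

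The 9 genes lie on 7 chromosomes of GRCm38, all as protein-coding genes. Cdh1 (chr8:106603351-106670246, plus strand) and Marveld3 (chr8:109947914-109962203, minus strand) share a chromosome, as do Crb3 (chr17:57059105-57065918, plus strand) and Epcam (chr17:87635979-87651129, plus strand). Cldn7 is at chr11:69964779-69967885 (plus), Ocln at chr13:100496507-100552718 (minus), St14 at chr9:31089402-31131853 (minus), Pkp3 at chr7:141078218-141090510 (plus) and Cgn at chr3:94760069-94786492 (minus). Only Crb3 shares exon bases with another gene, 14 bases (0.9% of its exons) with Dennd1c on the opposite strand. Whether counting used the strand is not given in the sources used here.

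Promoter sequence from RefSeq (GRCm38.p6) was at hand for 5 of the 9 genes, Epcam, Ocln, Cgn, Crb3 and Cldn7. Cdh1, Marveld3, St14 and Pkp3 had no entry. The 250 bases before the start were searched on both strands for 3 motifs that bear on epithelial or retinoic acid regulation. These were CACCTG, the E-box read by the repressors of the SNAI and ZEB families, AACNNGTT, read by the grainyhead-like activators, and the direct repeat of 5, read by retinoic acid receptors with their partner receptors. Of the 3 motifs, none overlapped another. The promoters of Epcam and Cgn are shown because each holds a motif, and that of Ocln because it holds none, all 5′ to 3′ on the gene's own strand with the matched motif in capitals. Epcam is at chr17:87635729-87635978 (plus), Cgn at chr3:94786483-94786732 (minus) and Ocln at chr13:100552719-100552968 (minus).
Epcam: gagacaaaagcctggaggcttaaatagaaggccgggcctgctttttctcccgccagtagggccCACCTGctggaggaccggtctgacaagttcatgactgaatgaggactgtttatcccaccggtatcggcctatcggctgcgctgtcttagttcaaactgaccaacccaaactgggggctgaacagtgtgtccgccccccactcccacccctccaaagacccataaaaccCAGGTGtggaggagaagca
Cgn: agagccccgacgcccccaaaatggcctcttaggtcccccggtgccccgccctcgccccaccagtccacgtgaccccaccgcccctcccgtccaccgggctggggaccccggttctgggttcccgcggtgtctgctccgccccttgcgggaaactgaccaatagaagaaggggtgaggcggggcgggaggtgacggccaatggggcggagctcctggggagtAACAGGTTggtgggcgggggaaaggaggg
Ocln: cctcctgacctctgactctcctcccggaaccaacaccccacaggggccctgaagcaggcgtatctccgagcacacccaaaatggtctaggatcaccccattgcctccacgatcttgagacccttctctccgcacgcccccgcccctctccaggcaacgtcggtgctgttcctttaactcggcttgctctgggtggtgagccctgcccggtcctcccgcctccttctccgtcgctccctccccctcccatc

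Epcam held CACCTG at -187 to -182 and, on the other strand, at -19 to -14, counted from the base before the start as -1. Crb3 held 3 such E-boxes, at -118 to -113, -63 to -58 and -7 to -2. Its window partly covers an exon of a longer Crb3 transcript in GENCODE and is not printed. At the first listed start, 2 of 5 genes held the E-box, and 4 of 5 did when every listed start was counted, since Ocln and Cldn7 each held 2 at their second start. That second-start window lies mostly (Ocln) or wholly (Cldn7) inside the gene's GENCODE span. The printed Cgn window runs a few bases into its gene. Of 32851 mouse promoters of the same length, 17.2% held it, and 19.4% of 27025 genes did at any start. Cgn alone held AACNNGTT, as AACAGGTT at -29 to -22, which 3.64% of promoters hold. The direct repeat was in 0 of 5, against 0.00913% of promoters, and a relaxed form of it was in 0 of 5, against 0.0883%. A match is a run of letters and no more, and a missing match says only that these letters are not in this window.

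All 9 genes averaged less in the Rar-deleted ovaries than in controls, with log2 fold changes of -2.61 to -0.91. For 7 of them the highest Rar-deleted ovary lay below the lowest control, and the exceptions were Crb3 and Cldn7. Among all 18954 genes tested, 1.09% had Rar-deleted ovaries wholly below controls and 0.691% wholly above. By edgeR's quasi-likelihood test with Benjamini-Hochberg adjustment over all genes, 2 of the 9 passed, Ocln and St14, where 0.111% of genes passed in either direction, 0.0897% as lower. Of 10 fits that each left out 1 library, 9 lost the call of Ocln and 5 that of St14. DESeq2 called 8 of the 9, all but Cldn7, where 0.745% of genes passed. Nothing is read from these counts, since this contrast chose the genes. In bulk tissue, fewer cells of a type and less RNA per cell cannot be told apart.

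**Figure D1:**
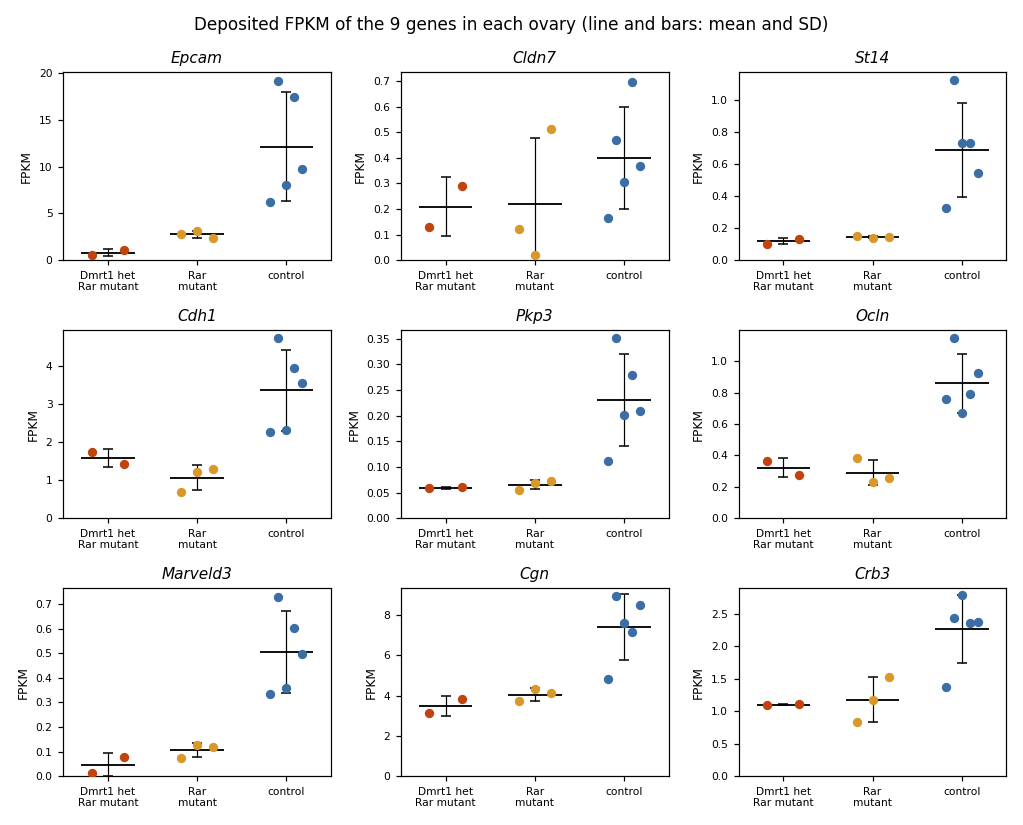
FPKM of the 9 genes in each ovary, 1 panel per gene, with Dmrt1 het Rar mutants (n = 2) at the left, Rar mutants (n = 3) in the middle and controls (n = 5) at the right. Points are libraries, lines are means and bars are SD, cut at 0, and the axes differ between panels. Points of the Cre-positive groups lie below all controls except for Crb3 and Cldn7.

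Epcam, the adhesion molecule, was the most abundant of the 9 in controls. It was at 2.78, 3.16 and 2.36 FPKM in the Rar mutants and at 0.553 and 1.04 FPKM in the Dmrt1 het Rar mutants, against 6.22, 19.1, 8.06, 17.4 and 9.75 FPKM in controls. Both Dmrt1 het Rar mutants lay below all Rar mutants, and those below all controls. Rar-deleted ovaries differed from controls by a log2 fold change of -2.61 ± 0.47 (SE). Counts were 27 to 157 in the Rar-deleted libraries and 313 to 981 in the controls.

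Cldn7, whose product EpCAM binds, was scarce and scattered. It was at 0.121, 0.021 and 0.512 FPKM in the Rar mutants and at 0.129 and 0.290 FPKM in the Dmrt1 het Rar mutants, against 0.166, 0.470, 0.304, 0.698 and 0.368 FPKM in controls. The groups overlapped, with Rar mutant 3 above 4 of the 5 controls. Cldn7 had a log2 fold change of -0.91 ± 0.59 (SE), and the counts behind it were 1 to 23 in Rar-deleted ovaries and 8 to 35 in controls.

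St14, the matriptase gene, was at 0.150, 0.140 and 0.148 FPKM in the Rar mutants and at 0.104 and 0.131 FPKM in the Dmrt1 het Rar mutants, against 0.329, 1.13, 0.733, 0.733 and 0.543 FPKM in controls. The Rar-deleted libraries lay close together (SD 0.0187 FPKM), whereas the controls spread over a wide range (SD 0.294 FPKM), with control 1 the lowest. The log2 fold change was -2.36 ± 0.31 (SE).

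Cdh1, the E-cadherin gene, was at 0.698, 1.21 and 1.29 FPKM in the Rar mutants and at 1.74 and 1.43 FPKM in the Dmrt1 het Rar mutants, against 2.27, 4.75, 2.32, 3.94 and 3.56 FPKM in controls. Unlike Epcam, it was higher in both Dmrt1 het Rar mutants than in any Rar mutant, and all 5 stayed under the lowest control. Its log2 fold change was -1.40 ± 0.27 (SE). Pkp3, the plakophilin gene, was at 0.0550, 0.0680 and 0.0720 FPKM in the Rar mutants and at 0.0580 and 0.0600 FPKM in the Dmrt1 het Rar mutants, against 0.112, 0.352, 0.201, 0.279 and 0.210 FPKM in controls. It was the least abundant of the 9 in both groups, with 5 or 6 counts in each Rar-deleted library and 10 to 32 in controls, and its log2 fold change was -1.87 ± 0.33 (SE).

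The tight junction genes were lower by different amounts. Ocln was at 0.383, 0.233 and 0.257 FPKM in the Rar mutants and at 0.366 and 0.278 FPKM in the Dmrt1 het Rar mutants, against 0.758, 1.15, 0.669, 0.792 and 0.926 FPKM in controls, a log2 fold change of -1.50 ± 0.23 (SE). Its groups did not overlap, and it was the only one of the 9 for which control 1 was not the lowest control. Marveld3 was at 0.0720, 0.125 and 0.119 FPKM in the Rar mutants and at 0.0130 and 0.0790 FPKM in the Dmrt1 het Rar mutants, against 0.333, 0.728, 0.360, 0.604 and 0.498 FPKM in controls, a log2 fold change of -2.61 ± 0.43 (SE). The lowest of these libraries, Dmrt1 het Rar mutant 1, held 1 count of Marveld3, so its level there is known only loosely.

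Cgn, the cingulin gene, was well expressed in all libraries. It was at 3.71, 4.32 and 4.13 FPKM in the Rar mutants and at 3.12 and 3.83 FPKM in the Dmrt1 het Rar mutants, against 4.81, 8.97, 7.63, 7.16 and 8.50 FPKM in controls. The groups did not overlap, although control 1 came within reach of the highest Rar-deleted ovary, and the log2 fold change was -0.96 ± 0.17 (SE). Crb3, the polarity gene, was at 0.832, 1.18 and 1.53 FPKM in the Rar mutants and at 1.09 and 1.11 FPKM in the Dmrt1 het Rar mutants, against 1.37, 2.44, 2.80, 2.36 and 2.37 FPKM in controls. Rar mutant 3 lay above control 1, which made the groups overlap, and the log2 fold change was -0.98 ± 0.24 (SE).

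By level, Cgn led in Rar-deleted ovaries and Epcam in controls. Mean FPKM in Rar-deleted ovaries was 3.82 for Cgn, 1.98 for Epcam, 1.27 for Cdh1, 1.15 for Crb3, 0.303 for Ocln, 0.215 for Cldn7, 0.135 for St14, 0.0816 for Marveld3 and 0.0626 for Pkp3. In controls it was 12.1 for Epcam, 7.41 for Cgn, 3.37 for Cdh1, 2.27 for Crb3, 0.859 for Ocln, 0.693 for St14, 0.505 for Marveld3, 0.401 for Cldn7 and 0.231 for Pkp3. Of neighbours in these orders, only Crb3 and Ocln had ranges that did not overlap over the Rar-deleted libraries. Over the controls this held only for Cgn and Cdh1 and again for Crb3 and Ocln. Such ranges ignore that levels of different genes come from the same library. Within libraries, Epcam was above Cgn in every control, and Cgn above Epcam in every Rar-deleted ovary. The order of the genes was not tested. In controls, Epcam stood above 79.4% of all genes by mean FPKM and Pkp3 above 20.6%.

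Among the controls, the same ovaries tended to hold the highest and the lowest level. Control 2 was the highest control for 7 of the 9, with control 3 highest for Crb3 and control 4 for Cldn7. Control 1, the only control with a title number under 7800, was the lowest control for 8 of the 9. How often each control was the highest or lowest over all genes was not computed. The order is therefore not read as a trait of the 9 genes. The highest control exceeded the lowest by 1.72-fold for Ocln and by 4.21-fold for Cldn7, the extremes of the set. The Rar-deleted ovaries had no such order. The highest of them was Rar mutant 2 for 3 genes, Rar mutant 3 for 3, Rar mutant 1 for 2 and Dmrt1 het Rar mutant 1 for 1. The lowest was Dmrt1 het Rar mutant 1 for 4 genes, Rar mutant 1 for 3 and Rar mutant 2 for 2. Low counts leave some of these ranks loose, with 5 or 6 counts of Pkp3, 1 to 10 of Marveld3 and 1 to 23 of Cldn7. Across the 10 libraries, which include the group difference that chose the genes, Pearson's r of a gene's log2 CPM with the mean of the other 8 ran from 0.606 for Cldn7 to 0.986 for Pkp3, as a description.

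The difference from controls had the same sign in both Cre-positive genotypes for all 9 genes. The comparisons share their 5 controls. In Dmrt1 het Rar mutants the log2 fold changes against controls (± SE) were -3.92 ± 0.54 for Epcam, -3.42 ± 0.63 for Marveld3, -2.55 ± 0.46 for St14, -1.94 ± 0.52 for Pkp3, -1.41 ± 0.33 for Ocln, -1.09 ± 0.23 for Cgn, -1.08 ± 0.35 for Cdh1, -1.04 ± 0.34 for Crb3 and -0.94 ± 0.86 for Cldn7. In Rar mutants they were -2.14 ± 0.40 for Epcam, -2.26 ± 0.47 for Marveld3, -2.25 ± 0.38 for St14, -1.82 ± 0.43 for Pkp3, -1.57 ± 0.28 for Ocln, -0.88 ± 0.20 for Cgn, -1.67 ± 0.31 for Cdh1, -0.95 ± 0.29 for Crb3 and -0.91 ± 0.73 for Cldn7. The edgeR fit over 20570 genes called 0 of the 9 in Dmrt1 het Rar mutants, where 0.0194% of genes passed (0.00486% lower, 0.0146% higher), and 0 of the 9 in Rar mutants, where 0.00972% passed, while DESeq2 called 5 in Dmrt1 het Rar mutants, against 1.78% of genes (1.1% lower, 0.675% higher), and 7 in Rar mutants, against 1.74% (0.581% lower, 1.16% higher). The groups did not overlap for 8 of the 9 in Dmrt1 het Rar mutants, against 14% of genes, and for 7 in Rar mutants, against 2.79% (2.39% lay wholly above). As with the pooled contrast, nothing is read from these counts.

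Of the 9, 5 stand in the authors' deposited table of 185 genes, which compares Rar mutants with controls. In the authors' deposited table the log2 fold changes (SE, adjusted p) were -1.59 for St14 (0.281, 1.94e-05), -1.53 for Epcam (0.278, 4.50e-05), -1.30 for Cdh1 (0.257, 0.000311), -1.25 for Ocln (0.247, 0.000313) and -1.47 for Marveld3 (0.293, 0.000368). These sizes in the authors' deposited table are smaller than those of the fit above for all 5 genes. They come from another fit, so both sets keep to their own scale.

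**Figure D2:**
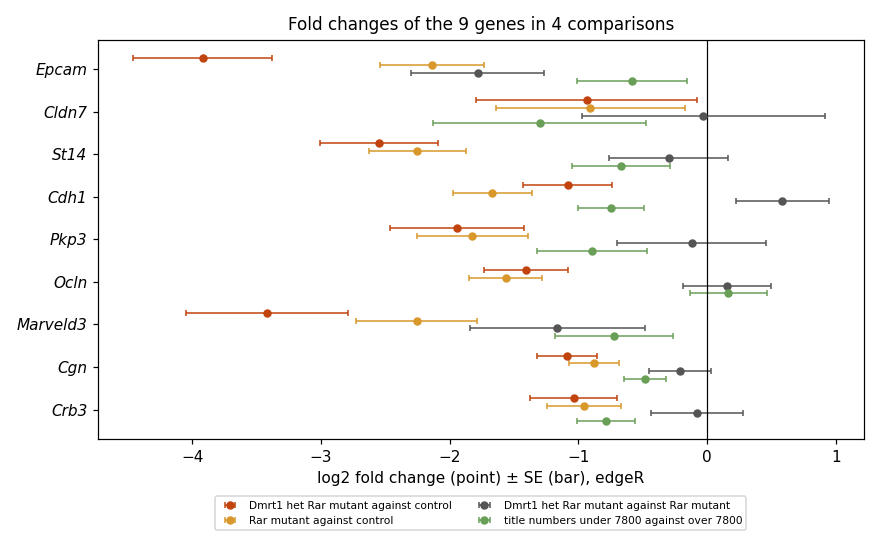
Log2 fold changes of the 9 genes, as points with bars of 1 SE, in 4 edgeR comparisons drawn from top to bottom within each gene: Dmrt1 het Rar mutant against control, Rar mutant against control, Dmrt1 het Rar mutant against Rar mutant, and title numbers under 7800 against over 7800. Both comparisons with controls are negative for all 9 genes, and the third is widest from 0 for Epcam, at -1.78.

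The libraries with title numbers over 7800 are among those that chose the genes as lower, so nothing is read from their differences. Among them, 2 Rar mutants met 4 controls, and all 9 genes were lower. The log2 fold changes there were -2.45 for St14, -2.31 for Epcam, -2.17 for Marveld3, -1.89 for Pkp3, -1.86 for Ocln, -1.55 for Cdh1, -0.94 for Cgn, -0.89 for Crb3 and -0.82 for Cldn7. Under 7800, 3 Rar-deleted ovaries met 1 control, in a fit that assumed the lone control to vary like them. The log2 fold changes there (± SE) were -2.58 ± 0.79 for Marveld3, -2.09 ± 0.77 for Epcam, -1.36 ± 0.37 for St14, -1.15 ± 0.35 for Ocln, -0.82 ± 0.50 for Cdh1, -0.45 ± 0.37 for Crb3, -0.44 ± 0.19 for Cgn and 0.096 ± 0.82 for Cldn7, the exception in sign. Pkp3 did not pass the count filter, and edgeR called 0% of 20415 genes (577 when p was not adjusted). In FPKM, Rar mutant 1 and the pair of Dmrt1 het Rar mutants all lay below control 1 for 8 of the 9 genes. The exception was Cldn7, for which Dmrt1 het Rar mutant 2, at 0.290 FPKM, lay above control 1, at 0.166 FPKM. The share of all genes with this order against a lone control was not computed, so nothing is read from this count.

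Dmrt1 het Rar mutants and Rar mutants can be compared without a control, so this difference was tested. Epcam was the furthest apart, at 0.799 ± 0.347 FPKM in Dmrt1 het Rar mutants (SD, n = 2) and 2.77 ± 0.400 FPKM in Rar mutants (SD, n = 3), a log2 fold change of -1.78 ± 0.52 (SE). It did not pass after adjustment (edgeR quasi-likelihood test, Benjamini-Hochberg adjusted p = 0.207). The others had log2 fold changes of -1.16 ± 0.68 for Marveld3, 0.58 ± 0.36 for Cdh1, -0.30 ± 0.46 for St14, -0.21 ± 0.24 for Cgn, 0.16 ± 0.34 for Ocln, -0.12 ± 0.58 for Pkp3, -0.08 ± 0.36 for Crb3 and -0.03 ± 0.94 for Cldn7. edgeR called 0 of the 9 and 0% of all 20570 genes. At an unadjusted p under 0.05 it gave 1 of the 9, Epcam, and 3467 of all genes, and DESeq2 called 1 of the 9, also Epcam, against 3.66% of genes (2.1% lower, 1.55% higher). Dmrt1 het Rar mutants lay wholly below Rar mutants for Epcam and St14, as did 19% of all genes, and wholly above for Cdh1, as did 20.3%. For the 8 genes other than Epcam the log2 fold change was less than 2 SEs from 0, which leaves room for a difference of either sign. Both Dmrt1 het Rar mutants carry title numbers under 7800, with only 1 of the 3 Rar mutants.

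The title-number sets were compared in a fit with the 3 genotype groups as terms. Of the 9 genes, 8 had a negative log2 fold change for libraries under 7800 against those over 7800, and Ocln a positive one. Crb3 was called lower, with a log2 fold change of -0.79 ± 0.22 (SE, edgeR adjusted p = 0.0488), and 4.02% of all genes were called lower and 7.72% higher. Cgn (-0.48 ± 0.16, edgeR adjusted p = 0.0775) and Cdh1 (-0.75 ± 0.25, edgeR adjusted p = 0.0786) did not pass. The remaining values were -1.30 ± 0.83 for Cldn7, -0.89 ± 0.43 for Pkp3, -0.72 ± 0.46 for Marveld3, -0.67 ± 0.38 for St14, -0.59 ± 0.43 for Epcam and 0.16 ± 0.30 for Ocln. DESeq2 called 3 of the 9 lower, Crb3, Cgn and Cdh1, where 9.66% of genes passed as lower. With edgeR, the call of Crb3 was lost when any 1 of the 10 libraries was left out, with adjusted p-values of 0.0517 to 0.263.

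Of the other 99 junction, adhesion and protease genes, 85 could be tested in Rar-deleted ovaries against controls, and edgeR called 0 of them. At an unadjusted p under 0.05, 9 were lower and 6 higher, where 1605 of all 18954 genes passed in either direction. That share is also the background for the single lists below in this contrast. DESeq2 called 3 lower, Cldn10, Cldn5 and Evpl, against 0.485% of all genes. Their median log2 fold change was -0.02 and their range -1.38 to 1.81, and over all 18954 genes the median was 0.0024. The Rar-deleted ovaries lay wholly below controls for 3 of the 85, again Cldn10, Cldn5 and Evpl, as they did for 1.09% of all genes. The members' own median cannot be set against this as a test, since they were chosen for being low.

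**Figure D3:**
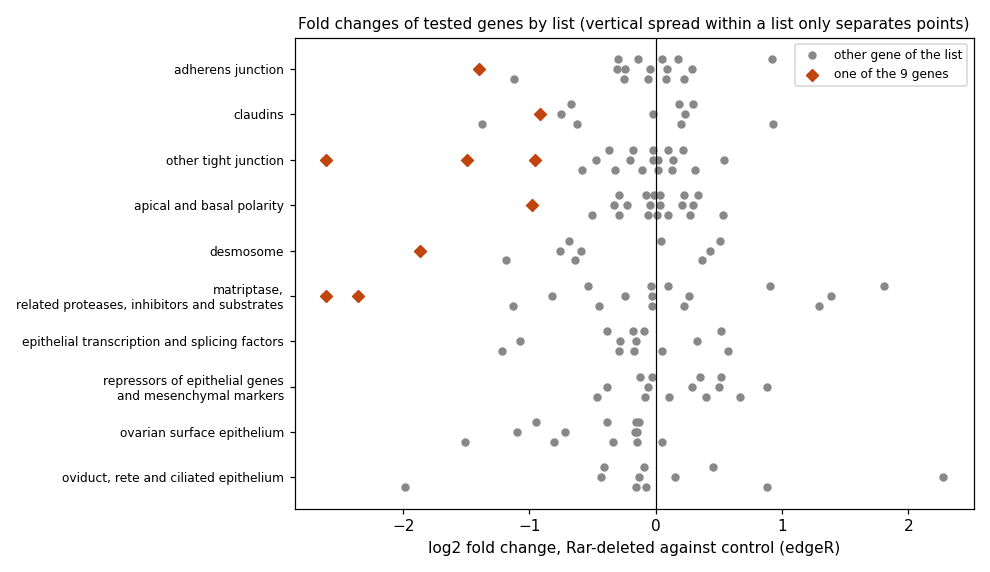
Log2 fold change of each tested gene, Rar-deleted against control (edgeR), by list. Diamonds are the 9 genes and grey points the other genes of each list, and height within a row carries no value. Epcam and St14 stand in the matriptase row, and grey points run from -1.38 to 1.81 in the 6 junction, adhesion and protease rows.

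Among the claudins, the barrier-forming and pore-forming proteins of tight junction strands, edgeR called 0 of 10 tested besides Cldn7, and 3 had an unadjusted p under 0.05. Cldn5, the claudin of endothelial cells, was at 14.8, 17.0 and 14.3 FPKM in the Rar mutants and at 11.6 and 15.5 FPKM in the Dmrt1 het Rar mutants, against 24.02, 23.4, 28.5, 22.9 and 23.8 FPKM in controls. These groups did not overlap, with a log2 fold change of -0.75 ± 0.13 (SE, edgeR adjusted p = 0.0602). Of 10 endothelial markers, Cldn5 among them, 9 were negative, with a median log2 fold change of -0.14, and edgeR called 0. Cdh5, the cadherin of blood vessels, averaged 12.5 FPKM in Rar-deleted ovaries and 13.5 FPKM in controls. The part of endothelial cells in the level of Cldn5 was not tested. Cldn10, a claudin with pore-forming isoforms, was at 0.474 ± 0.128 FPKM in Rar-deleted ovaries and 1.23 ± 0.351 FPKM in controls (SD, n = 5 each), a log2 fold change of -1.38 ± 0.27 (SE, edgeR adjusted p = 0.0985). The other claudins with a mean of at least 1 FPKM in a group overlapped between Rar-deleted ovaries and controls. Cldn1 averaged 4.03 FPKM in Rar-deleted ovaries and 3.41 FPKM in controls, Cldn3 averaged 1.97 FPKM in Rar-deleted ovaries and 3.12 FPKM in controls, and Cldn4 averaged 0.685 FPKM in Rar-deleted ovaries and 1.06 FPKM in controls. Cldn11 averaged 4.18 FPKM in Rar-deleted ovaries and 3.67 FPKM in controls, Cldn12 averaged 7.95 FPKM in Rar-deleted ovaries and 6.47 FPKM in controls, and Cldn15 averaged 5.80 FPKM in Rar-deleted ovaries and 5.86 FPKM in controls. Cldn18 averaged 1.58 FPKM in Rar-deleted ovaries and 0.8286 FPKM in controls, and the claudin-domain gene Cldnd1 averaged 26.7 FPKM in Rar-deleted ovaries and 23.1 FPKM in controls.

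The partners of Cdh1 and of the tight junction membrane proteins gave 0 calls. In the adherens junction list 0 of 15 passed with edgeR and 2 had an unadjusted p under 0.05, Vcl and Nectin4. Vcl, which encodes the actin linker vinculin, had a log2 fold change of 0.92 ± 0.29 (SE, edgeR adjusted p = 0.490). Nectin4, another nectin gene, had one of -1.12 ± 0.37 (SE, edgeR adjusted p = 0.497), with 5 to 13 counts in Rar-deleted ovaries and 8 to 29 in controls. Cdh2, the N-cadherin gene, came next, at 0.29 ± 0.13 (SE, edgeR adjusted p = 0.596). Ctnnb1, which encodes the β-catenin that binds cadherin tails, averaged 88.0 FPKM in Rar-deleted ovaries and 83.2 FPKM in controls. In the tight junction list 0 of 17 passed and 1 had an unadjusted p under 0.05, Marveld2, the tricellulin gene, at -0.48 ± 0.21 (SE, edgeR adjusted p = 0.584). Tjp1, which encodes the scaffold ZO-1, averaged 16.0 FPKM in Rar-deleted ovaries and 15.0 FPKM in controls. In the polarity list, home of Crb3, 0 of 19 passed and 0 had an unadjusted p under 0.05.

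Among desmosome genes 0 of 9 passed with edgeR and 2 had an unadjusted p under 0.05. Evpl, which encodes the desmosome-associated envoplakin, was at 1.05, 0.720 and 0.795 FPKM in the Rar mutants and at 0.647 and 0.769 FPKM in the Dmrt1 het Rar mutants, against 1.10, 2.55, 1.36, 1.95 and 2.09 FPKM in controls. Rar mutant 1 lay just under control 1, with a log2 fold change of -1.18 ± 0.23 (SE, edgeR adjusted p = 0.115). Dsg2, which encodes a desmosomal cadherin, had a log2 fold change of -0.59 ± 0.26 (SE, edgeR adjusted p = 0.584). The other plakophilins did not share the low level of Pkp3, as Pkp2 averaged 7.31 FPKM in Rar-deleted ovaries and 5.42 FPKM in controls, and Pkp4 averaged 10.8 FPKM in Rar-deleted ovaries and 10.5 FPKM in controls.

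Matriptase is held in check by the inhibitors HAI-1 and HAI-2, encoded by Spint1 and Spint2, and works with prostasin, encoded by Prss8. In this list edgeR called 0 of 15, and 7 had an unadjusted p under 0.05, 3 lower and 4 higher. The 4 higher were Plau (log2 fold change 1.81 ± 0.66, SE), Hgf (1.38 ± 0.45), Plaur (1.29 ± 0.51) and Corin (0.90 ± 0.36). The 3 lower were Spint1, Spint2 and Prss8. Spint1 was at 0.470, 1.28 and 1.54 FPKM in the Rar mutants and at 0.996 and 0.786 FPKM in the Dmrt1 het Rar mutants, against 1.39, 3.14, 1.83, 2.51 and 2.19 FPKM in controls, a log2 fold change of -1.13 ± 0.32 (SE, edgeR adjusted p = 0.380). Rar mutant 3 lay above control 1, and the other Rar-deleted ovaries lay below all controls. Spint2 averaged 8.76 ± 0.503 FPKM in Rar-deleted ovaries and 11.9 ± 2.21 FPKM in controls (SD, n = 5 each), with a log2 fold change of -0.45 ± 0.14 (SE, edgeR adjusted p = 0.474). Prss8 averaged 0.656 ± 0.196 FPKM in Rar-deleted ovaries and 1.17 ± 0.309 FPKM in controls (SD, n = 5 each), with a log2 fold change of -0.83 ± 0.27 (SE, edgeR adjusted p = 0.497). Control 1 was the lowest control for all 3, as it was for 8 of the 9 genes.

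F2rl1, which encodes PAR-2, a receptor that proteases of this kind can activate, had a log2 fold change of 0.10 ± 0.43 (SE, edgeR adjusted p = 0.948). Plau, which encodes urokinase, a plasminogen activator, stood apart in Rar mutant 3. It was at 28.2, 65.1 and 356 FPKM in the Rar mutants and at 35.5 and 31.2 FPKM in the Dmrt1 het Rar mutants, against 27.045 to 32.1 FPKM in controls. Its receptor gene Plaur was highest in the same ovary, at 4.79 FPKM, against 0.678 to 1.23 FPKM in controls. Of the 9 genes, Crb3, Pkp3 and Cldn7 had their highest Rar-deleted value in that ovary too, although Pkp3 had 6 counts both there and in Rar mutant 2.

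**Figure D4:**
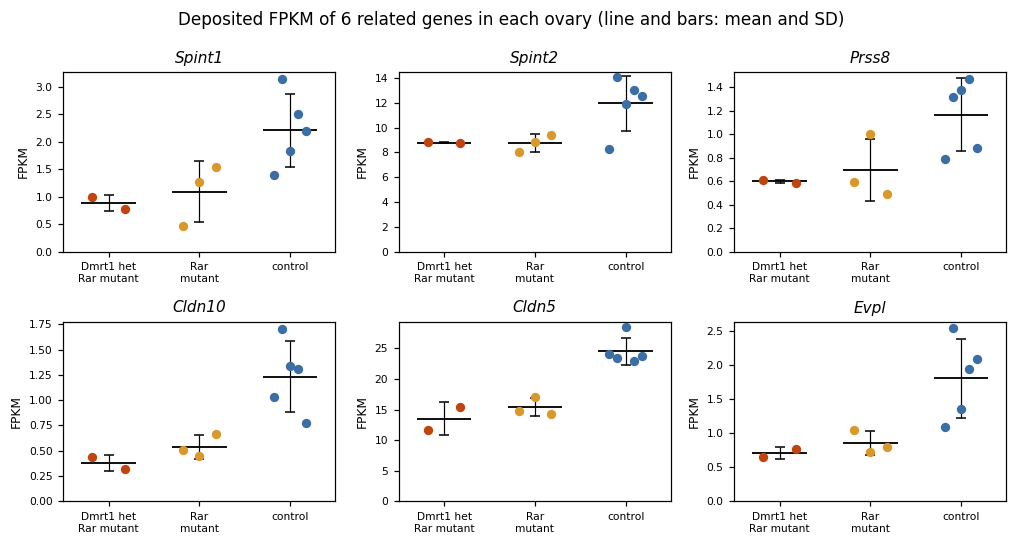
FPKM of the matriptase partners Spint1, Spint2 and Prss8 and of Cldn10, Cldn5 and Evpl in each ovary, with Dmrt1 het Rar mutants (n = 2) at the left, Rar mutants (n = 3) in the middle and controls (n = 5) at the right. Points are libraries, lines are means and bars are SD. Groups with Cre and controls do not overlap for Cldn10, Cldn5 and Evpl and overlap for Spint1, Spint2 and Prss8.

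In Rar mutants against controls edgeR called 0 of 90 tested genes of the 6 lists (21 when p was not adjusted), while DESeq2 called 7, Plau, Plaur, Cldn2, Cldn10, Cldn5, Evpl and Dsg2. In Dmrt1 het Rar mutants against controls edgeR called 0 of 90 (22 when p was not adjusted), while DESeq2 called 7, Cldn10, Cldn5, Evpl, Ppl, Dsp, Nectin2 and Cldn3. Between Dmrt1 het Rar mutants and Rar mutants edgeR called 0 of 90 (20 when p was not adjusted), while DESeq2 called 10. Over all 20570 genes, in the same order of comparisons, 1944, 3563 and 3467 had an unadjusted p under 0.05. DESeq2 called 1.74%, 1.78% and 3.66% of all genes, in that order. Dsp, which encodes the desmosome linker desmoplakin, was at 17.0 and 12.0 FPKM in the Dmrt1 het Rar mutants, against 5.88, 3.80 and 4.85 FPKM in the Rar mutants, a log2 fold change of 1.60 ± 0.29 (SE, edgeR adjusted p = 0.126). Nectin2, a nectin of adherens junctions, was at 13.1 and 15.2 FPKM in the Dmrt1 het Rar mutants, against 23.7, 28.8 and 26.4 FPKM in the Rar mutants, a log2 fold change of -0.88 ± 0.16 (SE, edgeR adjusted p = 0.126). The groups did not overlap for either gene. By title number, edgeR called 8 of 90, where 11.7% of all genes were called. Dsc2 (1.88), Tjp1 (0.78), Mpdz (0.68), Lin7c (0.62), Dsp (0.61) and Prkci (0.44) had a higher log2 level under 7800 than over 7800, and Spint1 (-1.11) and Cldn15 (-0.78) a lower one, each value being the log2 fold change.

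Factors known to act on epithelial genes were listed apart. Of 13 tested factors that favour epithelial transcripts, edgeR called 0 and 2 had an unadjusted p under 0.05. Grhl3, a grainyhead-like factor, averaged 0.345 ± 0.134 FPKM in Rar-deleted ovaries and 0.804 ± 0.238 FPKM in controls (SD, n = 5 each), a log2 fold change of -1.22 ± 0.32 (SE, edgeR adjusted p = 0.337). Elf3, an epithelial ETS factor, had one of -1.08 ± 0.49 (SE, edgeR adjusted p = 0.588). Grhl2 was too scarce for the pooled fit, with 13, 6 and 4 counts in the Rar mutants and 9 and 9 in the Dmrt1 het Rar mutants, against 8, 20, 7, 8 and 13 counts in controls. The splicing factors Esrp1 and Esrp2 averaged 2.23 and 3.22 FPKM in Rar-deleted ovaries and 2.52 and 2.16 FPKM in controls.

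Of 14 repressors of epithelial genes and mesenchymal markers, edgeR called 0 and 2 had an unadjusted p under 0.05, both higher. Snai2, which encodes the repressor SLUG, was at 7.96, 9.46 and 10.3 FPKM in the Rar mutants and at 7.98 and 7.73 FPKM in the Dmrt1 het Rar mutants, against 6.96, 6.65, 6.23, 5.59 and 5.24 FPKM in controls. All 5 Rar-deleted ovaries lay above all controls, as they did for 0.691% of all genes, with a log2 fold change of 0.50 ± 0.14 (SE, edgeR adjusted p = 0.376). Foxc2, a forkhead factor of mesenchyme, averaged 0.697 ± 0.224 FPKM in Rar-deleted ovaries and 0.376 ± 0.0914 FPKM in controls (SD, n = 5 each), also without overlap, with a log2 fold change of 0.88 ± 0.27 (SE, edgeR adjusted p = 0.457). Zeb1, another repressor of Cdh1, had a log2 fold change of -0.03 ± 0.18 (SE, edgeR adjusted p = 0.962).

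Markers of cells that could carry these genes were described by their counts and levels. The 13 markers of the ovarian surface epithelium summed to 331 to 384 CPM in the Dmrt1 het Rar mutants, 527 to 644 CPM in the Rar mutants and 501 to 830 CPM in controls. Over the Rar-deleted ovaries 12 of 13 had a negative log2 fold change against controls, with a median of -0.34, and edgeR called 0 (4 at an unadjusted p under 0.05). Krt7 and Krt19, keratins of simple epithelia, averaged 1.93 and 15.3 FPKM in Rar-deleted ovaries and 5.49 and 32.8 FPKM in controls, and Msln, the mesothelin gene, 13.8 FPKM in Rar-deleted ovaries and 24.02 FPKM in controls. Dmrt1 het Rar mutants had negative values for 13 of 13 against controls, with a median log2 fold change of -0.97, and for 13 of 13 against Rar mutants, with a median of -0.93. edgeR called 0 in either comparison (9 and 8 at an unadjusted p under 0.05, against 3563 and 3467 of all 20570 genes). In Rar mutants, 10 of 13 were negative against controls, with a median of -0.09. By title number, edgeR called 5 lower (Krt7, Krt8, Krt18, Krt19 and Upk3b) and 1 higher (Muc16) under 7800. Of all genes, 4.02% were called lower there and 7.72% higher. Of the granulosa cell markers, 10 of 10 were positive in Dmrt1 het Rar mutants against Rar mutants, with a median log2 fold change of 0.87 (6 at an unadjusted p under 0.05), and in Rar mutants against controls 10 of 10 were negative, with a median of -0.50 (2 at an unadjusted p under 0.05). edgeR called 0 in both, and 3467 and 1944 of all 20570 genes had an unadjusted p under 0.05 there, in that order. Of the adipocyte markers, 3 of 5 tested were negative in Rar-deleted ovaries against controls, each at an unadjusted p under 0.05, with a median of -2.30 and 0 called by edgeR. They summed to 17.2 to 78.2 CPM in Rar-deleted ovaries and 13.5 to 78.6 CPM in controls. The part of surface epithelium, granulosa cell and adipocyte markers in the lower level of the 9 genes was not tested.

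The 12 oocyte markers summed to 227 to 710 CPM in Rar-deleted ovaries and 510 to 766 CPM in controls, and all 12 had a negative log2 fold change, with a median of -0.37. edgeR called 0 of them and 0 had an unadjusted p under 0.05. By title number, all 12 were also negative under 7800 against over 7800, with a median of -0.87. There edgeR called 5 of them lower, against 4.02% of all genes. The 13 markers of oviduct, rete and ciliated epithelium summed to 41.8 to 88.9 CPM in Rar-deleted ovaries and 36.1 to 72.7 CPM in controls, and edgeR called 0 of 11 (2 at an unadjusted p under 0.05). Among these, Wfdc2, a gene of reproductive tract epithelium, averaged 0.214 FPKM in Rar-deleted ovaries and 0.857 FPKM in controls, and Ovgp1, which encodes oviductin, 2.47 FPKM in Rar-deleted ovaries, with 8.86 FPKM in Rar mutant 3, and 0.503 FPKM in controls. No marker of these lists was at 0 in all libraries. Their part in the result was not tested.

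The genes whose log2 CPM over the 10 libraries was most like the mean of the 9 were ranked by Pearson's r, as a description. The ranking is over libraries that fall into Rar-deleted ovaries and controls, between which these genes also differed. The first was Grb7, which encodes a signalling adaptor (r = 0.991). It was at 0.211, 0.183 and 0.258 FPKM in the Rar mutants and at 0.149 and 0.194 FPKM in the Dmrt1 het Rar mutants, against 0.349, 0.959, 0.704, 0.751 and 0.735 FPKM in controls. Control 1 was again the lowest control and control 2 the highest. Slc27a2, a fatty acid transporter gene, followed (r = 0.970), then Nbl1, which encodes a secreted BMP antagonist (r = 0.965), Serinc2 (r = 0.959), the Wnt ligand gene Wnt9a (r = 0.950), Tex21 (r = 0.947), Sectm1b (r = 0.945) and Ccdc64b (r = 0.944). The most abundant of the 8 was Nbl1, with 15.7 ± 3.23 FPKM in Rar-deleted ovaries and 28.6 ± 6.13 FPKM in controls (SD, n = 5 each). Sectm1b had the strongest fold change of the 8 (log2 -3.32), with 0.505 ± 0.266 FPKM in Rar-deleted ovaries and 5.06 ± 2.83 FPKM in controls (SD, n = 5 each).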

How the data were processed

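The samples were 10 polyA libraries of ovaries, 5 Rar-deleted (3 Rar mutants and 2 Dmrt1 het Rar mutants) and 5 controls. The submitters' processing notes name GRCm38 (mm10) as the build and, as tools, STAR 2.4.2a, Trimmomatic 0.32, DESeq2 1.12.3 and SAMtools 1.0. The counting tool, the annotation release and the use of strand in counting are not given in the sources used here. The deposited count table holds a raw count per gene and library. The deposited FPKM follow median-of-ratios size factors (at most 0.0713% off), not total counts (up to 11.4% off). The authors' deposited table of 185 genes gives, per the file headers, p-values before and after adjustment, a Wald score, the log2 fold change, its standard error, and the mean of scaled counts as a signal. Of 24306 gene identifiers, 24090 matched GENCODE M21.

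Counts were tested in R 4.3.3 with edgeR 4.0.16 (two-sided quasi-likelihood test, TMM, filterByExpr, robust), and a gene was called where its p, adjusted by Benjamini-Hochberg over all genes, was under 0.05. The pooled contrast had 2 groups (18954 genes), the others 3 groups sharing the spread (20570 genes). All 9 genes passed the filter in each of these fits. An SE is the size of the log2 fold change over the square root of F. Overlap of groups was judged on TMM-scaled CPM, and log2 CPM used a prior count of 2. The scripts were tested on simulated data. Alternatives were DESeq2 1.42.0, relative log expression factors, no filter, a replicate block, title-number set as a term, title numbers over 7800 only and, added after the data were seen, under 7800 only, only the groups compared, and leaving out each library.

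The 9 genes and all lists were chosen with earlier results of these data known. Beside the 9, the text names from each list the called genes or up to 3 with the smallest p, claudins with a mean of at least 1 FPKM in a group, fixed partners of matriptase and EpCAM, fixed transcription factors, and the 8 genes most like the mean of the 9. Pkp2, Pkp4, Esrp1 and the receptor genes were added, the first 3 after their values were seen. Some genes of these sets are not reported here.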

Additional observations from a re-analysis of the deposited data

How the results depend on the processing

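Against controls, 1 of 152 alternative values of the 9 genes reversed in Rar-deleted ovaries, that of Cldn7 (0.096) among title numbers under 7800, and 0 of 153 did in Rar mutants. These fits reuse the libraries that chose the genes as lower, so steady signs were built in and nothing is read from them. The libraries under 7800 alone were fitted after the data were seen. The number of calls moved with the method. Whole-table calls for Rar-deleted against control were 21, and 180 with DESeq2, 40 with the title-number set as a term, 142 among title numbers over 7800 and 0 under 7800. Of the 9 genes 2 were called, and 8 with DESeq2 and 0 under 7800. Of the other junction and adhesion genes 0 were called, and 3 with DESeq2 and 1 among title numbers over 7800 (Plaur). For Rar mutants against controls, 2 genes were called, and 372 with DESeq2, 85 with the set term, 142 over 7800 and 1 with only those 2 groups fitted. Of the 9 genes 0 were called there, and 7 with DESeq2, 2 with the set term and 2 over 7800. Of the other junction genes 0 were called, and 7, 2 and 1 under the same 3 settings. For Dmrt1 het Rar mutants against controls, 4 genes were called, and 329 with DESeq2 and 1 with the set term. DESeq2 called 5 of the 9 and 7 other junction genes there. Between Dmrt1 het Rar mutants and Rar mutants, 0 genes were called, and 626 with DESeq2, of which 1 was of the 9 and 10 were other junction genes. By title number, 2414 genes were called, and 3958 with DESeq2 and 5250 with Rar-deleted against control as the only other term, which called 18 other junction genes. Of the 9 genes DESeq2 called 3 by title number, and 0 were called with no filter on low counts. The causes of these shifts were not tested.

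The replicate numbers were not used as pairs in the main fits. Deviations of same-numbered Rar mutants and controls correlated at 0.443, 0.0114 and 0.248. For differently numbered ones the correlations ran from -0.417 to 0.256. These few values neither show nor exclude a pairing. With the replicate block, calls fell to 0 for Rar-deleted against control (0 of the 9), to 0 for Dmrt1 het Rar mutants against controls, and to 0 by title number (0 of the 9 and 0 other junction genes). The block reversed Crb3 (0.17) and Cldn7 (0.62) between Dmrt1 het Rar mutants and Rar mutants, and Ocln (-0.40), Marveld3 (1.52) and Cldn7 (0.59) by title number.

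With the set term, Cldn7 reversed in Dmrt1 het Rar mutants against controls (0.19), and between them and Rar mutants St14 (0.12), Pkp3 (0.50), Cgn (0.11), Crb3 (0.48) and Cldn7 (0.93) did. Leaving out 1 library reversed some of these small values. Between Dmrt1 het Rar mutants and Rar mutants, Ocln ran from -0.059 (without Dmrt1 het Rar mutant 1) to 0.40 (without Rar mutant 1), Crb3 from -0.28 (without Rar mutant 1) to 0.15 (without Rar mutant 3), and Cldn7 from -0.72 (without Dmrt1 het Rar mutant 2) to 1.52 (without Rar mutant 3), with 0.44 without Dmrt1 het Rar mutant 1. By title number, Epcam ran from -1.12 to 0.0077, St14 from -1.24 to 0.058 and Ocln from -0.21 to 0.64, each between the fits without Rar mutant 1 and without control 1.

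Leaving out each library in turn gave 5 (without Dmrt1 het Rar mutant 2) to 52 (without control 1) calls for Rar-deleted against control, with 0 to 6 of the 9 and 0 to 2 other junction genes, the highest each time without control 1. The call of Ocln was lost in 9 of these 10 fits (edgeR adjusted p up to 0.144) and that of St14 in 5 (up to 0.0731). The replicate block also lost both, and Ocln was lost over 7800. Rar mutants against controls gave 1 to 384 calls, 0 to 2 of the 9 and 0 to 4 others, the highest without Rar mutant 1. Dmrt1 het Rar mutants against controls gave 0 to 364 calls, 0 to 5 of the 9 and 0 to 5 others, the highest without control 1. Dmrt1 het Rar mutants against Rar mutants gave 0 to 335 calls, 0 to 0 of the 9 and 0 to 3 others, the highest without Rar mutant 1. By title number there were 118 (without Rar mutant 1) to 3494 (without control 3) calls, 0 to 1 of the 9 and 0 to 11 others. Where 1 Dmrt1 het Rar mutant was left, it was assumed to vary like the other groups. Low counts limit Cldn7, Pkp3 and Marveld3 most, with as few as 1, 5 and 1 counts in a library. The small number of ovaries per genotype limits every comparison.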
